A study of Mus musculus with 10 samples.

Results

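The cytosolic ribosomal protein genes, which encode the protein parts of the cytoplasmic ribosome, were followed through the reprogramming of mouse fibroblasts. Members were taken by symbol: Rps or Rpl with a number and at most 1 of the letters a, x or l, together with Rpsa, Rplp0, Rplp1 and Rplp2. The pattern found 82 genes, 32 of the small subunit and 50 of the large subunit, among the 50600 genes in the files. Of these, 79 averaged at least 1 TPM over the 10 libraries (TPM is the level per transcript length, scaled to a fixed total), and the same 79 passed the filter on low counts. Rpl3l, Rpl10l and Rpl6l did not. Fau, Rps3a1 and Rack1 also encode ribosomal proteins but fall outside the pattern.

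The cells were mouse embryonic fibroblasts (MEFs) of the strain CBA/CaJ X C57BL/6J, taken at embryonic day 13.5. Every culture was infected with OKS retroviruses, which carry Oct4, Klf4 and Sox2. The control arm (OKS+DR) also received the fluorescent protein DsRed, and the other arm (OKS+FoxO6) the forkhead factor FoxO6. The MEFs carried an Oct4-GFP reporter and, after 2 rounds of infection, were induced in iCD1, a defined reprogramming medium. A single library was made for either arm on days 0, 1, 3, 5 and 7. No day was repeated within an arm, so the days of an arm served as replicates in the model, and p-values measure the spread between these libraries, which may be technical.

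Each ribosome carries a single copy of nearly every ribosomal protein, and cells therefore make them in near equal numbers. Many of their mRNAs begin with a C followed by a run of pyrimidines, the 5′ terminal oligopyrimidine (TOP) tract, through which mTOR signalling controls their translation. The genes are short and highly expressed, and the mouse genome holds many processed pseudogenes copied from their mRNAs.

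The libraries held 1208379 to 2225750 expected counts. Foxo6 was at or under 2.29 TPM in the 5 OKS+DR libraries and between 762.1 and 1356 TPM in the 5 OKS+FoxO6 libraries, as the labels state. Fibroblast markers summed to 9024 TPM in OKS+DR and 8552 TPM in OKS+FoxO6 at day 0, and 9 of the 10 fell with day. Summed epithelial markers went from 11.2 to 626.1 TPM in OKS+DR and from 3.14 to 142.2 TPM in OKS+FoxO6, and summed pluripotency markers reached 304.5 and 51.0 TPM at day 7. Erythroid and endothelial markers summed to at most 9.63 and 5.73 TPM in any library. Of the 5 macrophage markers, Cd68 made up nearly all of the signal, and the sum was 7.95 to 53.6 TPM. The part that these changes in cell makeup had in the values of the ribosomal protein genes was not tested, and in bulk RNA fewer cells of a type and less RNA per cell cannot be told apart.

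A pair of libraries stood apart in transcript length. The TPM-weighted mean effective length was 1743 nt in OKS+FoxO6 day 7 and 1871 nt in OKS+DR day 0, against 1920 to 2035 nt in the other 8. This bears on the members directly. Their effective lengths ran from 285 to 1731 nt with a median of 664 nt, and all 79 lay under the median of 2341 nt over every gene that averaged at least 1 TPM. The day differences and the fits are therefore set beside genes of the members' own length range.

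Ribosomal protein mRNAs made up between 7.34% and 10.8% of all TPM. The OKS+DR share began at 10.8% on day 0 and then measured 8.75%, 8.22%, 8.31% and, on day 7, 9.11%. The OKS+FoxO6 share began at 8.38% and then measured 8.25%, 7.69%, 7.34% and 10.1%. Both arms thus had their lowest values in mid course. The highest shares were those of OKS+DR day 0 and OKS+FoxO6 day 7. These are also the libraries of shortest mean transcript length, a mean that the members' own share lowers. As a share of expected counts, which does not correct for length, OKS+DR day 0 held 3.96% (95% Wilson interval 3.92% to 3.99%) and OKS+FoxO6 day 7 held 3.93% (3.9% to 3.96%). The other 8 libraries held 2.47% to 3.28%. These intervals cover counting error only.

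**Figure D1:**
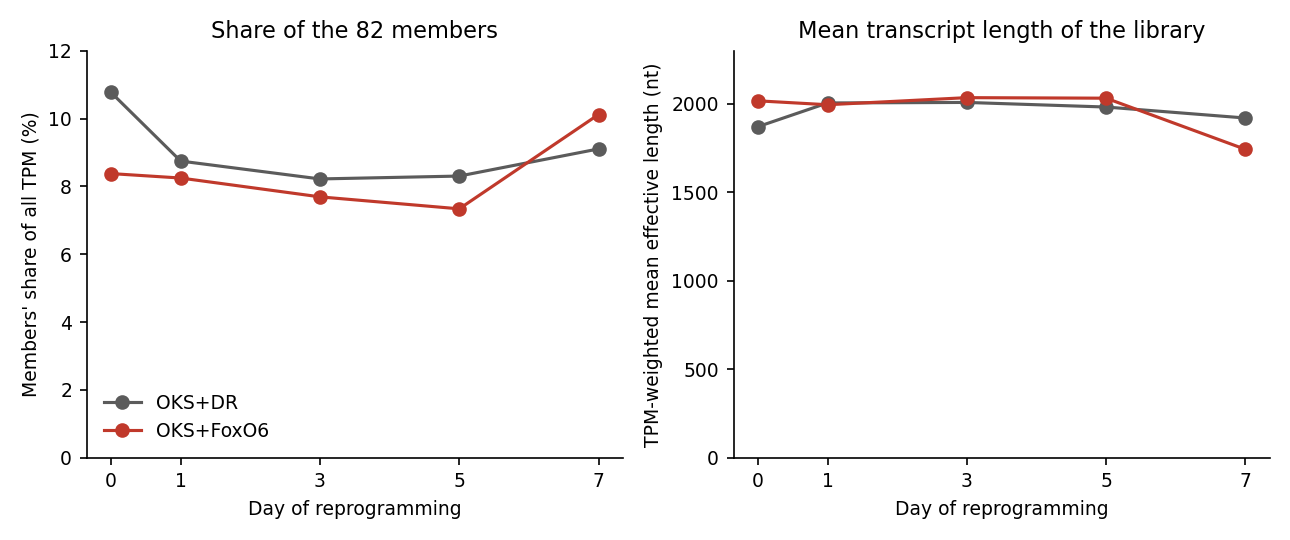
Left, summed TPM of the 82 members as a percent of the library's TPM against the day of reprogramming, 1 point per library, for OKS+DR (grey) and OKS+FoxO6 (red). Right, TPM-weighted mean effective transcript length in nt of the same libraries. The highest shares, 10.8% and 10.1%, belong to the libraries with the shortest mean lengths, 1871 and 1743 nt. The mean covers all genes, the members included.

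The ratio of the OKS+FoxO6 to the OKS+DR share of TPM was 0.778 at day 0, with a counting interval of 0.769 to 0.787. On days 1, 3 and 5 it measured 0.943, 0.936 and 0.884. At day 7 it was 1.11 (1.1 to 1.12). OKS+FoxO6 therefore had the lower share on 4 of the 5 days and the higher one at day 7.

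Most members differed in the same direction on a given day. At day 0, 76 of the 79 were lower in OKS+FoxO6, with a median difference of −0.35 in log2(TPM + 1) and quartiles of −0.44 and −0.24. The 3 exceptions were Rpl12 (0.61), Rps4l (0.43) and Rpl39l (0.08), and with its pseudogene copies added Rpl12 turned to −0.21. Day 1 gave a median of −0.06 with 53 lower, day 3 one of −0.06 with 50 lower, and day 5 one of −0.20 with 65 lower. At day 7 the sign turned: 57 of 79 were higher in OKS+FoxO6 and the median was 0.12. Small and large subunit genes had close medians, −0.36 and −0.34 at day 0 and 0.12 for each at day 7.

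Other genes of the members' length range shifted less at day 0 and by as much at day 7. Over the 2755 tested genes of that range that are not members, the median was −0.06 at day 0, with 55.5% lower against 96.2% of the members. On days 1 and 3 it was −0.01 and −0.02, with 50.7% and 51.5% lower against 67.1% and 63.3% of the members. At day 5 it was −0.01, with 50.7% lower against 82.3% of the members. At day 7 it was 0.14, with 59.4% higher against 72.2% of the members. Once the trend of each day's difference with length, fitted without the members, was taken off, the members' median was −0.20 at day 0 and −0.18 at day 5, with 73 and 64 of 79 lower. At day 7 the median then turned to −0.09, with 53 of 79 lower. The direction of day 7 thus turned with the length trend removed, while those of day 0 and day 5 were kept.

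**Figure D2:**
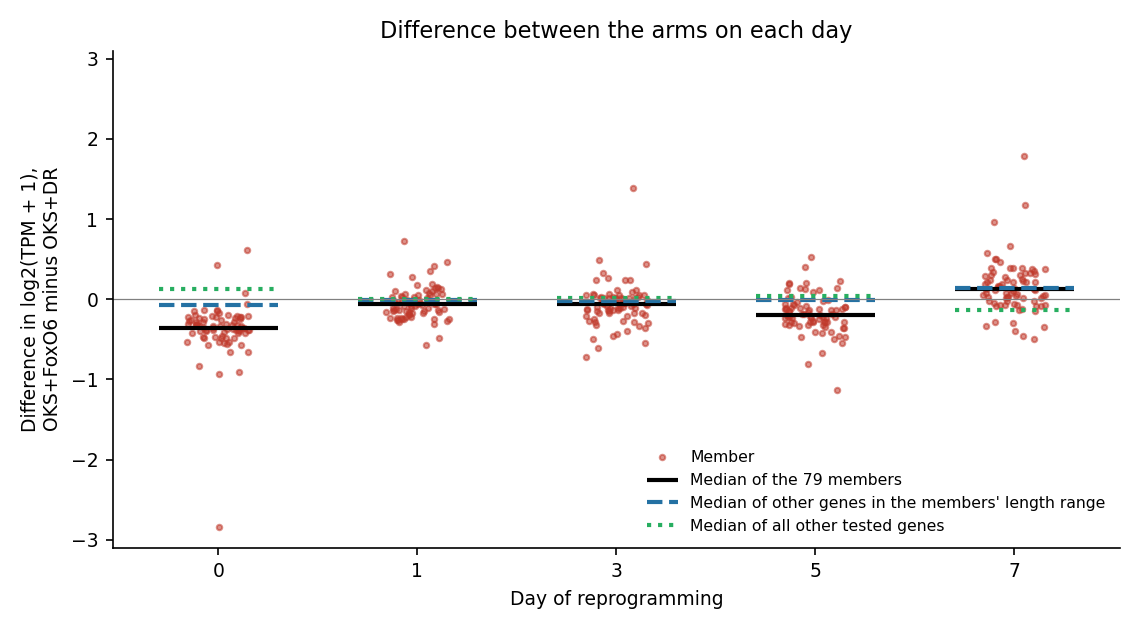
Difference in log2(TPM + 1) between the arms, OKS+FoxO6 minus OKS+DR, on each day, 1 point per member (79), with medians of the members (black), of 2755 other genes in their length range (blue, dashed) and of all other tested genes (green, dotted). The members' median lies below both others at days 0 to 5, most at day 0 (−0.35), and on that of the short genes at day 7.

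Within OKS+DR, 74 of 79 members were lower at day 1 than at day 0, with a median change of −0.33 beside −0.04 over the genes of the same length range, and the median stayed between −0.42 and −0.22 at days 3 to 7. Within OKS+FoxO6 the median change from day 0 was −0.03, −0.12 and −0.20 on days 1, 3 and 5. Between day 5 and day 7 it was 0.42, with 77 of 79 members higher, beside 0.13 over the genes of the same length range. In OKS+DR, 61 of 79 (77.2%) were higher over that interval, with a median of 0.14. Over the genes of the same length range the median there was −0.03, with 47.3% higher. Of the 79, 44 had their highest TPM in OKS+DR day 0 and 29 in OKS+FoxO6 day 7, which together are 92.4% of the members, against 35.0% of the short genes and 18.4% of all tested genes. The lowest TPM fell in OKS+FoxO6 day 5 for 37 members.

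**Figure D3:**
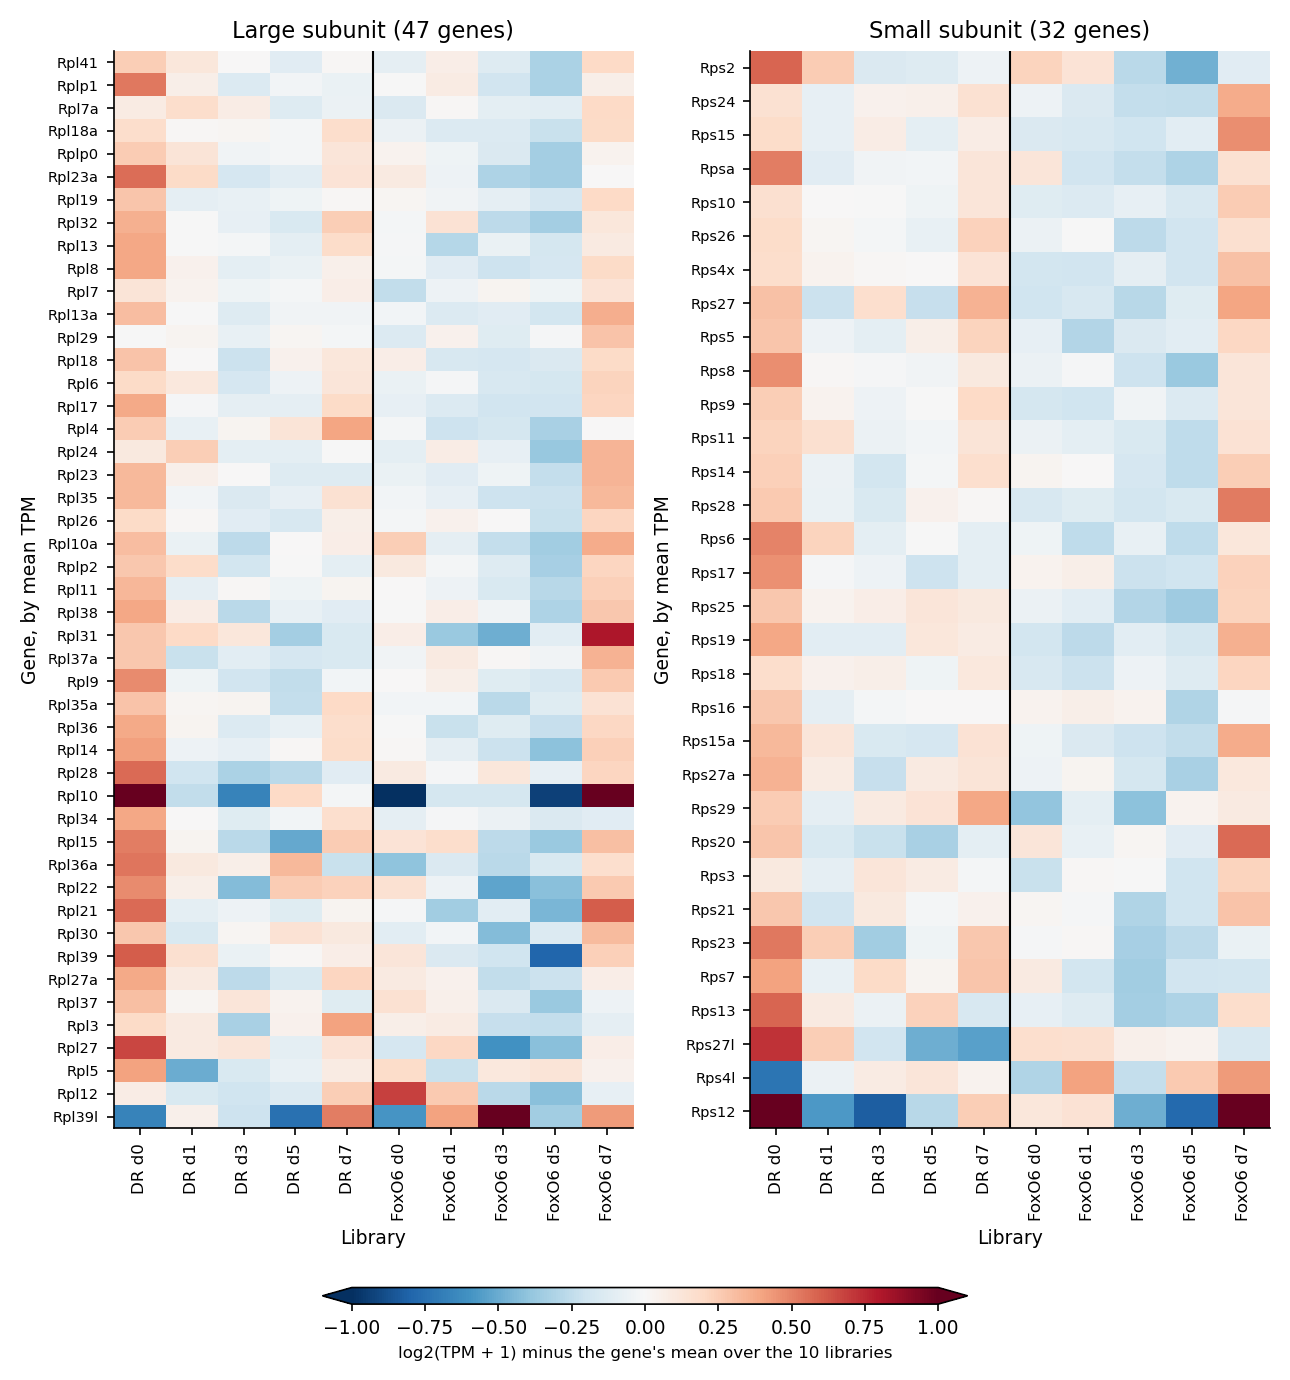
log2(TPM + 1) of each of the 79 members minus its own mean over the 10 libraries, by library (columns) and gene (rows, by mean TPM), for the large subunit (47 genes, left) and the small subunit (32 genes, right). The columns of OKS+DR day 0 and OKS+FoxO6 day 7 are red for most genes, and Rpl10, Rps12, Rps4l, Rps27l and Rpl39l depart from their neighbours.

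No member passed the test for a shift between the arms over the 5 days (edgeR's quasi-likelihood test with Benjamini-Hochberg adjustment, adjusted p under 0.05). Among all 11028 genes tested, 6.86% were called higher and 7.09% lower in OKS+FoxO6. The members' median shift was −0.15 on the log2 scale, 71 of 79 being negative, beside −0.02 over all genes and −0.02 over those of the same length range. At an unadjusted p under 0.05 there were 7 members, all lower in OKS+FoxO6, which is 8.86% of the members against 14.4% of all genes, and DESeq2 called none after adjustment. The members nearest the threshold were named after their values were seen. The smallest adjusted p was that of Rps7, a small subunit protein known to bind Mdm2, with a log2 shift of −0.35 ± 0.11 (SE, edgeR adjusted p = 0.0607). Rpl4, a large subunit protein that reaches into the exit tunnel, followed with −0.31 ± 0.10 (adjusted p = 0.0703). With the length trend taken into the model both passed, which is 2.53% of the members against 8.96% of all genes called lower in that fit, and 20.3% of the members against 16.3% of all genes were lower at an unadjusted p under 0.05. With the counts of all copies added the shift of Rps7 was −0.21, and its day 7 difference went from −0.46 to 0.01. Without day 7, 5 others passed as lower (Rpl21, Rpl36a, Rpl39, Rps13 and Rps25), or 6.41% of the members against 6.77% of all genes in that fit. At an unadjusted p under 0.05 there were then 36 of 78 members lower (46.2%) against 14.8% of all genes, with a median shift of −0.25. Without day 0 the median was −0.05 and 2.53% of the members were lower at that level, against 14.6% of all genes, so the comparison with all genes depends on the days included.

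A common trend with day was not found for any member either. Of all genes, 9.9% were called rising and 10.1% falling with day, while the members had a median slope of 0.01 log2 per day and none called. The median slope of the short genes was also 0.01. At an unadjusted p under 0.05, 1 member had a positive and 1 a negative slope, against 16.2% and 16.1% of all genes, and DESeq2 called 1, Rps27l. Without day 7, 4 members passed as falling (Rpl15, Rpl23a, Rpl39 and Rps2), or 5.13% against 9.3% of all genes in that fit, with a median slope of −0.07. At an unadjusted p under 0.05 there were 36 of 78 with a negative slope (46.2%) against 16.4% of all genes. Without day 0 the median was 0.05 with none called, and 15.2% had a positive slope at that level against 14.8% of all genes. The interaction of arm and day called 0.0% of all genes as steeper and 0.0% as less steep in OKS+FoxO6 by edgeR, with 4.43% and 4.22% at an unadjusted p under 0.05. Among the members, 6 had an unadjusted p under 0.05, all of them steeper in OKS+FoxO6, and DESeq2 called no member but 27 other genes (12 steeper and 15 less steep). The members' median difference of slopes was 0.08 per day, with 76 of 79 positive, beside 0.05 over the genes of the same length range. With the length trend taken into the model it was 0.002, with 43 positive and 36 negative, and 1 member had an unadjusted p under 0.05, as was also the case with all copies added. Without OKS+DR day 0 and OKS+FoxO6 day 7 it was −0.08, with 74 of 79 negative, and the members at an unadjusted p under 0.05 were 15 less steep (19.0%, against 6.47% of all genes in that fit) and 0 steeper (against 8.8%), so that the direction rests on these 2 libraries.

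The level of a single member depended on where its reads were placed. The authors assigned reads by RSEM, which divides a read that fits several transcripts between them. In the annotation, 736 pseudogenes share at least 1 window of 63 nt with a member, a length near the fragment length in the files, and the median member shares 30.6% of its own windows with another gene. Rpl36a shared the most, 85.0%, and 20 members shared over 50%. Those pseudogenes held 0.574% to 0.844% of a library's counts.

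Rps12, Rpl27, Rpl3 and Rpl10 shared most of their reads with pseudogenes that carry their names. Of the summed counts of a member and the genes named as its pseudogenes, Rps12 held 5.2%, Rpl27 14.4%, Rpl3 25.1% and Rpl10 40.5%, and 15 members in all held under 90%. In 11 of those 15 pairs, the mRNA and its main pseudogene aligned with no mismatch and no gap, and in the other 4 with 2 mismatches. Rpl10, at chrX:74270812-74273135 (plus strand, GRCm38), aligned with Rpl10-ps3, at chr9:50344201-50344968 (minus strand), over 740 identical bases. Despite its name, Rpl10-ps3 is annotated as protein coding. Rpl3, whose protein lies at the peptidyl transferase centre, at chr15:80077791-80091868 (minus strand), and Rpl3-ps1, at chrX:13202571-13203780 (plus strand), differed at 2 of 1210 bases. Their coding bases are shown because they set which reads can be told apart. The first 60 coding bases of Rpl10 and Rpl10-ps3 are the same sequence, and coding bases 28 to 87 of Rpl3 and Rpl3-ps1 hold 1 difference, in capitals.
Rpl10 and Rpl10-ps3: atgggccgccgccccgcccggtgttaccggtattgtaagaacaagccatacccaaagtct
Rpl3: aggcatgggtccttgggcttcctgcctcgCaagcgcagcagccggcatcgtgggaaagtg
Rpl3-ps1: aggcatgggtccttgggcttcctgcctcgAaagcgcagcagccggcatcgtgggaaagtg

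Rpl10, an X-linked large subunit gene whose protein joins late in assembly, varied widely. On days 0, 1, 3, 5 and 7 OKS+DR gave TPM values of 1545, 443.5, 331.9, 606.5 and 519.2. OKS+FoxO6 gave 214.9, 465.8, 465.8, 275.3 and 1799. The highest values were those of OKS+DR day 0 and OKS+FoxO6 day 7, and the differences between the arms were −2.84, −1.14 and 1.79 in log2(TPM + 1) on days 0, 5 and 7. The genes named Rpl10-ps moved the other way. Their expected counts were 281.6, 589, 590.3, 459.6 and 902.1 in OKS+DR and 1039, 609.5, 672, 811.4 and 0 in OKS+FoxO6. With them added, the day differences of Rpl10 were −0.47, −0.03, −0.03, −0.14 and −0.03, and none passed 2-fold. Rpl10l, the autosomal retrogene that serves in the male germ line, was at 0 TPM in all 10 libraries.

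Rps12, which encodes a small subunit protein, also shared its reads with a near-identical copy. Its expected counts were 61.5, 29.5, 29.1, 32.1 and 72.2 in OKS+DR and 79.3, 44.6, 37.9, 39 and 127.5 in OKS+FoxO6, while those of its named pseudogenes were 735.9 to 1189. Rps12-ps3, at chr19:59322290-59322783 (plus strand) and annotated as protein coding, matched the mRNA over 494 identical bases and held 99.9% of these. The difference at day 7 was 1.17 for Rps12 alone and 0.18 with the pseudogenes.

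**Figure D4:**
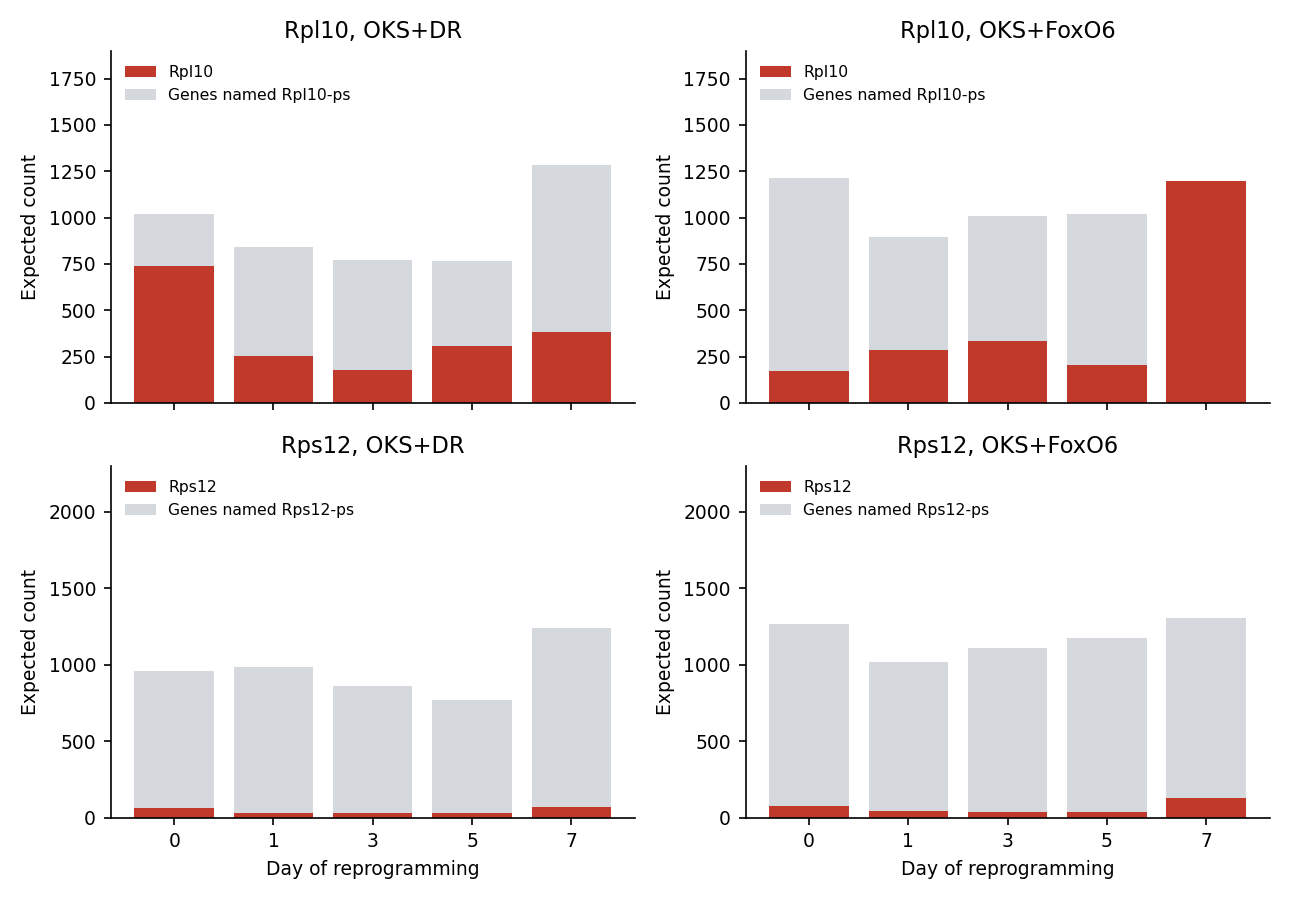
Expected counts of Rpl10 (upper row) and Rps12 (lower row) in red, stacked with those of the genes named as their pseudogenes in light grey, by day, for OKS+DR (left) and OKS+FoxO6 (right). The red part of Rpl10 runs from 174.2 to 1195 counts, while the full bar stays between 764 and 1283.

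Beyond Rpl10 and Rps12, Rpl39l was the only member past 2-fold between the arms on any day. The counts of members past 2-fold were 1, 0, 1, 1 and 2 of 79 at days 0, 1, 3, 5 and 7. Among all 15011 genes that averaged at least 1 TPM, 17.0%, 17.5%, 20.0%, 21.7% and 24.8% were past 2-fold on these days. Among the 3929 genes of at least 50 TPM, nearer to the members' levels, the shares were 5.32%, 5.4%, 7.58%, 9.26% and 11.6%. With every pseudogene that shares a window added to its member, Rpl39l at day 3 alone remained past 2-fold. Adding the named pseudogenes only, without others such as those with Gm symbols, put Rpl30, which fell outside the rule for naming and was picked after its values were seen, past 2-fold at days 0, 3 and 5.

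Levels among the members drew closer once the copies were counted. The 3 highest means were those of Rpl41, which encodes a very small basic peptide, at 3795 TPM, Rps2, near the mRNA entry channel, at 2626 TPM and Rps24, a small subunit protein, at 2524 TPM. The 3 lowest above 1 TPM were Rpl39l at 18.8 TPM, Rpl12, at the base of the stalk, at 71.8 TPM and Rpl5, which binds 5S rRNA, at 72.2 TPM. With copies added, Rpl12 stood at 1797 TPM and Rpl5 at 1123 TPM, of which the members themselves held 4.0% and 6.4%. Gm10275 and Gm15500 were the genes that shared the most windows with them. The SD of the log2 mean TPM over the 79 members was 1.28 alone and 0.98 with copies, and the median was 1040 and 1340 TPM. Members under 150 TPM went from 5 to 1, leaving Rpl39l.

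The same holds for stability over the libraries. After each library's member median was taken off, the SD of a member over the 10 libraries had a median of 0.13 in log2 for the member alone and 0.11 with copies, beside 0.05 from counting error. Members over an SD of 0.25 went from 8 to 3. The 3 that stayed were Rpl39l, Rps4l and Rps27l, each the lesser known paralogue of a core gene, and each with few shared windows (0.0%, 10.3% and 11.9%). Counting error alone gives Rpl39l an SD of 0.47 of its 0.66, while for Rps4l it gives 0.10 of 0.43 and for Rps27l 0.12 of 0.36.

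Rps27l, a paralogue of Rps27 known as a p53 target, was lower on each later day in OKS+DR. In day order its TPM there was 646.1, 462.8, 342.9, 277.9 and 267.8. In OKS+FoxO6 it was 440.3, 436.9, 405.3, 400.2 and 349.4. Those of OKS+FoxO6 stayed within 400.2 and 440.3 up to day 5. The common slope was −0.11 ± 0.04 log2 per day (SE, edgeR adjusted p = 0.0562), which passed with RLE size factors, with DESeq2, with no filter and with the length trend. Without day 0 the slope was −0.07. The slope in OKS+FoxO6 was 0.16 ± 0.06 per day above that in OKS+DR, at an edgeR adjusted p of 0.494. That difference was 0.08 with the length trend, and also 0.08 without OKS+DR day 0 and OKS+FoxO6 day 7. Rps27 itself ran between 1207 and 1920 TPM with a common slope of 0.05 ± 0.04 (adjusted p = 0.392). Mdm2, another p53 target and the ligase that ribosomal proteins bind, had a common slope of −0.14 ± 0.03 log2 per day (edgeR adjusted p = 0.0135). In day order it was at 138.3, 191, 129.3, 94.6 and 80.2 TPM in OKS+DR. In OKS+FoxO6 it lay between 157.1 and 176.4 TPM up to day 5, and only the day 7 library was lower, at 79.9 TPM.

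Rps4l, an autosomal relative of X-linked Rps4x that a later annotation lists as a transcribed processed pseudogene, went the other way. It was at 172.3, 275.5, 302.8, 310.9 and 293.3 TPM in OKS+DR and at 232.5, 379.7, 242.5, 342.9 and 384.7 TPM in OKS+FoxO6, with day 0 lowest in each arm. Its slope was 0.08 ± 0.03 per day (edgeR adjusted p = 0.0837), and among the alternatives run it passed when day 1 was left out. The slope was 0.05 without day 0, and 0.03 without OKS+DR day 0 and OKS+FoxO6 day 7. Rps4x lay between 1327 and 1855 TPM, and its slope was 0.03 ± 0.03 (adjusted p = 0.477).

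Rps2 had lower values on the later days in both arms, going from 3859 to 2488 TPM in OKS+DR and from 2997 to 2373 TPM in OKS+FoxO6. Centred on its own mean and relative to the members' median, with copies added, it went from 0.28 to −0.15 in OKS+DR and from 0.24 to −0.28 in OKS+FoxO6. The slope of −0.07 ± 0.03 per day had an edgeR adjusted p of 0.17. It passed with the length trend and, at −0.17, without day 7, while without day 0 it was −0.03. Rps20, a small subunit gene picked after its values were seen, was taken on the same scale, centred on its own mean. There it lay between 0.01 and 0.33 in the 5 OKS+FoxO6 libraries and between −0.35 and 0.01 in the 5 of OKS+DR, with an arm shift of 0.17 ± 0.13 (adjusted p = 0.421).

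**Figure D5:**
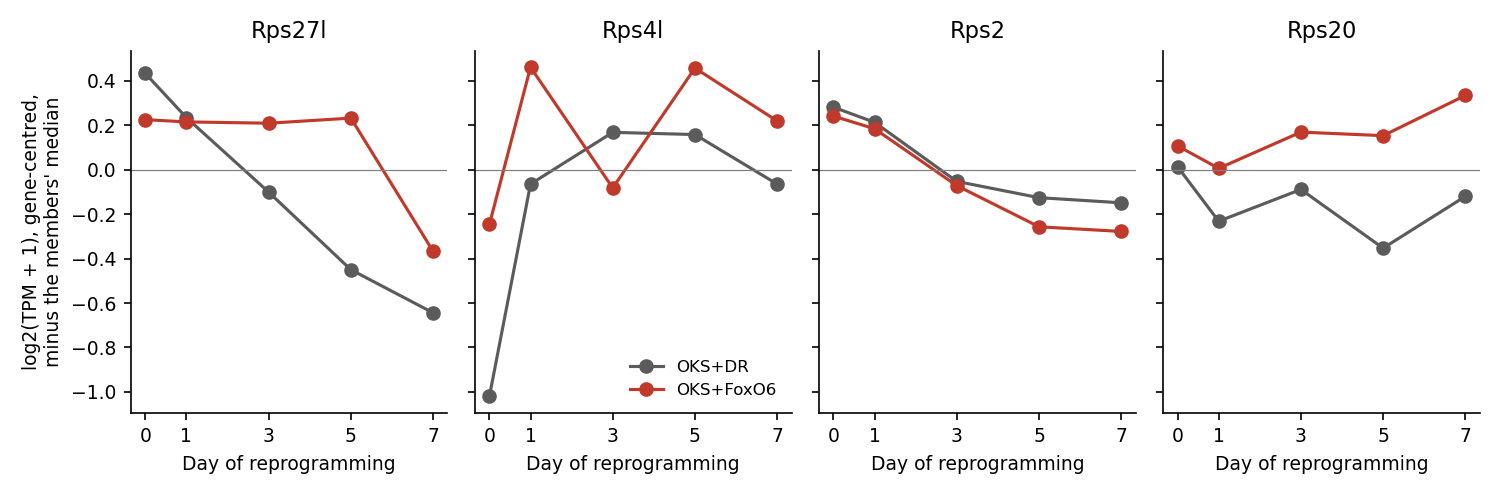
log2(TPM + 1) with copies added, centred on each gene's mean and set against the members' median in each library, for Rps27l, Rps4l, Rps2 and Rps20 by day in OKS+DR (grey) and OKS+FoxO6 (red). Rps27l runs from 0.43 to −0.64 in OKS+DR, and Rps2 ends below 0 in both arms.

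The other paralogues were low or close to their partners. Rpl39l, the germ line relative of Rpl39, had 5 to 28 reads per library. Its level at day 3 was 40.0 TPM in OKS+FoxO6 and 14.7 in OKS+DR, a ratio of 2.72 with an exact counting interval of 1.21 to 6.9, and its arm shift was 0.43 ± 0.34 (edgeR adjusted p = 0.458). Rpl39, in the exit tunnel, lay between 210.7 and 556.5 TPM. Rpl3l, the muscle relative of Rpl3, was at 0 TPM in every library, and Rpl3 was at 239 to 396.4 TPM. Outside the name pattern, Rpl22l1, Rpl7l1 and Rpl36al ran at 96.3 to 159.6, 61.2 to 96.7 and 307.9 to 505.5 TPM, and none was called in any of the fits.

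Of 11 members with known further roles, 10 had negative arm shifts, beside 71 of 79 over all members, and none passed the threshold. The stalk proteins that recruit elongation factors had arm shifts of −0.20 ± 0.10 for Rplp0, −0.17 ± 0.14 for Rplp1 and −0.09 ± 0.14 for Rplp2 (SE, edgeR adjusted p = 0.239, 0.476 and 0.736). Rpsa, also known as a laminin receptor precursor, had −0.24 ± 0.11 (edgeR adjusted p = 0.173). It was at 2529 TPM at day 0 of OKS+DR and at 1640 to 1929 TPM on the later days of that arm, beside 1435 to 1974 TPM in OKS+FoxO6. Rps6, the substrate of the S6 kinases, had −0.23 ± 0.15 (adjusted p = 0.359). Rps14 and Rps19, both known from inherited or acquired anaemias, had −0.12 ± 0.12 and −0.18 ± 0.15 (adjusted p = 0.574 and 0.497). Rpl11, which with Rpl5 restrains Mdm2, had −0.11 ± 0.12, and Rpl5 had 0.08 ± 0.15 (adjusted p = 0.64 and 0.779). Rpl13a, which can leave the ribosome to silence mRNAs, and Rpl38, needed for the translation of some Hox mRNAs, had −0.08 ± 0.14 and −0.03 ± 0.16 (adjusted p = 0.778 and 0.924). Rpl5, most of whose reads lay in a copy, was the positive one, and with copies added its 5 day differences lay between −0.26 and −0.03.

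TOP tracts were looked for at the transcription starts in RefSeq (GRCm38.p6). A tract was a C at the start base followed by at least 4 bases that are C or T, read on the gene's own strand. Of the 79 members, 58 had a listed promoter. The tract stood at the first listed start in 12 (20.7%) against 2.49% of the 27025 genes listed, and at any listed start in 13 (22.4%) against 3.01%. Of the mitochondrial ribosomal protein genes 0 of 68 held it, of the ribosome biogenesis genes 0 of 35, and of the translation factors and other known TOP genes 2 of 12. The following windows run from 10 bases before the start to 20 from it, with the tract in capitals. Rps27 is shown with its paralogue Rps27l because both are described above. Rpl15 has the longest tract, 13 bases, and Rps6 one of 9 bases, beside a median of 8 among members with a tract.
Rps27 (chr3:90213629-90213658, minus strand): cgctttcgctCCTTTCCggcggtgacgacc
Rps27l (chr9:66946076-66946105, plus strand): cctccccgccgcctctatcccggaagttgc
Rpl15 (chr14:18270967-18270996, minus strand): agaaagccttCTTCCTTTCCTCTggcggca
Rps6 (chr4:86857348-86857377, minus strand): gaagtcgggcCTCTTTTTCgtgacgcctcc
Rps27 thus held a tract at its listed start and Rps27l did not. A listed start may lie some bases from the one used in these cells, and no match says only that the letters are not at this base.

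Genes that work with the ribosome were read against the 7.09% of all genes called lower in OKS+FoxO6. Of 40 ribosome biogenesis genes, 2 were called lower in OKS+FoxO6 and 0 higher, with a median shift of −0.21: Dkc1, the pseudouridine synthase of box H/ACA particles, at −0.72 ± 0.15 (edgeR adjusted p = 0.00986) and Rrs1, which brings the 5S particle into pre-ribosomes, at −0.44 ± 0.13 (adjusted p = 0.0422). Of these 40, 1 rose with day, Ubtf, an activator of RNA polymerase I, against 9.9% of all genes. Of 17 translation factors and other known TOP genes, 2 were lower and 0 higher, with a median shift of −0.16. The 2 were Nap1l1, a histone chaperone, at −0.56 ± 0.10 (edgeR adjusted p = 0.00567) and Hnrnpa1, a splicing regulator, at −0.52 ± 0.11 (adjusted p = 0.00909). Of 76 tested mitochondrial ribosomal protein genes none was called by arm, with a median of −0.11, and 1 rose with day, Mrpl24, also under the 9.9% of all genes. These medians stand beside −0.02 over all genes and −0.15 over the cytosolic members.

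Growth regulators were measured beside the members. Eif4ebp1, the mTOR target that represses cap-dependent translation, was higher in OKS+FoxO6 by 0.66 ± 0.18 (edgeR adjusted p = 0.0333) and fell with day by −0.23 ± 0.05 per day (adjusted p = 0.00893). It was the 1 of 11 tested growth control genes called by arm, against 6.86% of all genes called higher, and with Mdm2 made 2 of 11 called as falling with day, against 10.1% of all genes. Myc, an activator of ribosomal protein genes, was at 32.8 to 64.7 TPM in OKS+DR and 55.3 to 105.4 TPM in OKS+FoxO6, with a shift of 0.56 ± 0.18 (adjusted p = 0.0603). Mycn stayed under the filter on low counts, at up to 18.1 TPM in OKS+DR and 3 TPM in OKS+FoxO6.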

How the data were processed

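The mRNA of 10 libraries was sequenced. Per the authors, reads were assigned to the GENCODE M13 transcriptome with Bowtie2 and RSEM, and the submitters' processing notes name mm10. The labels name a Vazyme VAHTS kit, and the study's methods an Illumina TruSeq kit. The deposited expected counts are RSEM's estimates per gene, not normalized, and the deposited TPM values are the authors' length-scaled levels. The whole-series table held the same expected counts and 48476 of the genes.

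Expected counts were rounded and fitted with edgeR 4.0.16 in R 4.3.3 (TMM factors, filterByExpr by arm, glmQLFit and glmQLFTest), with Benjamini-Hochberg adjustment over 11028 genes and a threshold of 0.05. Models were day as a factor plus arm, arm plus day as a number, and arm by day. Day differences used log2(TPM + 1), understate changes of low genes and have no test. DESeq2 1.42.0 was an alternative. The scripts were tested on simulated data. Sequences of pseudogenes came from GENCODE M21 and promoters from RefSeq. Shared windows were of 63 nt, over protein-coding transcripts of the members. Length trends were lowess curves (span 0.5).

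Members and gene lists were chosen with earlier results of these data known. Named members were the paralogue pairs, the 3 highest and 3 lowest by mean TPM, those past 2-fold on any day, those past the threshold in a fit (none), and 11 members with known further roles. Other members named, such as Rps7, Rpl4, Rpl15, Rpl27, Rpl30, Rpl36a and Rps20, were chosen after their values were seen. Lists were described by counts and by their 2 to 4 smallest adjusted p. No library was left out of the main fits. Separate cultures or dates are not given in the sources used here.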

Additional observations from a re-analysis of the deposited data

Results flagged for a closer look

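Between day 0 and day 7 the members' median moved in opposite directions in the arms: the change was −0.22 in OKS+DR and 0.23 in OKS+FoxO6 on the log2(TPM + 1) scale (69 of 79 lower and 67 of 79 higher). It stands here because 2 arms moved opposite ways under the same comparison of days, with 1 library at each end. The difference between these ends was not itself tested. The arm by day fit, which compares slopes over all 5 days, called 0 members and 0.0% of all genes. Its median difference of slopes over the members was 0.08 per day and, with the length trend in the model, 0.002. OKS+DR day 0 and OKS+FoxO6 day 7, 2 of the 4 libraries compared, are those of shortest mean transcript length, a mean that includes the members. The other genes of the members' length range changed by −0.08 and 0.15 in the same comparisons.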

How the results depend on the processing

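Counts of members called were 0 in each main fit. For the arm shift, 2 were called lower with the length trend (2.53%, against 8.96% of all genes) and 0 to 5 when 1 day was left out. For the trend with day, 1 was called with RLE size factors, 1 with DESeq2, 1 with no filter, 2 with the length trend and 0 to 4 when 1 day was left out. The first 4 of these settings called 10.5%, 11.5%, 5.69% and 12% of all genes as falling, against 1.25% to 2.53% of the members. For the interaction, 0 members were called under every alternative run. The 2 alternatives chosen after seeing the data (counts of all copies added, and leaving out OKS+DR day 0 with OKS+FoxO6 day 7) also called 0 members in the 3 fits, but without those libraries the interaction of Rpl10 reversed from 0.53 to −0.085 per day. The medians of the day differences moved with CPM and TMM factors in place of TPM, to −0.51, −0.10, −0.24 and 0.28 on days 0, 1, 5 and 7. With the length trend removed they were −0.20 on day 0, −0.04 on day 3 and, with the sign turned, −0.093 on day 7. The ratio of the arms' shares was 0.722, 0.855 and 1.2 on days 0, 5 and 7 in expected counts, and 0.897 and 1.08 on days 5 and 7 with named pseudogenes added. The cause of the moves was not tested. The arm shift pairs the arms by day through the day factor, and the labels give no replicate numbers for any further block. At 5 to 28 reads per library, changes of Rpl39l inside its counting interval were not detectable.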
